A study of Mus musculus with 2 samples.

Results

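The genes described here are 36 members of the unfolded protein response and of the ATF4 response to amino acid shortage, together with the chaperones of the endoplasmic reticulum (ER) that these responses control. They were taken as the probe sets assigned to a single gene with one of these symbols, which gave 83 of 45101 probe sets and 36 of 18193 named genes. Expression was measured in a pair of mouse cell lines, both described as endothelial, on 1 Affymetrix array each. SVEC4-10 lacked most endothelial markers on its array, as given below. No difference has a replicate check, and no test between the lines was possible. The MS-1 line came from pancreatic microvasculature and was grown in DMEM with 5% fetal calf serum, and the SVEC4-10 line came from an axillary lymph node and was grown in DMEM with 10% fetal calf serum. Both were grown for 3 to 5 days to confluence in standard medium, with no stress agent named, and were used up to passage 5. Each is a single established line and both are known to carry the SV40 large T antigen, so tissue of origin, serum and line cannot be told apart. No explanation for any difference was tested.

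The ER folds secreted and membrane proteins with the help of chaperones such as BiP (Hspa5) and calreticulin (Calr) and of disulfide isomerases. When unfolded proteins build up, the membrane sensors IRE1 (Ern1), ATF6 and PERK switch on chaperone and degradation genes, largely through XBP1 and cleaved ATF6, which are known to act through the ER stress response element (ERSE) in promoters. PERK and related kinases also phosphorylate eIF2alpha, which raises translation of ATF4. ATF4 then turns on genes of amino acid synthesis and stress signalling through C/EBP-ATF response elements (CARE), and the kinases that sense amino acid shortage or viral RNA reach ATF4 without ER stress.

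The promoter windows of the members are shown because the ATF4 branch and the chaperones hold different elements. Windows of 300 bases, from 250 before to 50 after the annotated start, were found in RefSeq (build GRCm38.p6) for 33 of the 36 genes, the exceptions being Atf6, Hyou1 and Manf. The ERSE letters, CCAAT and CCACG with 9 bases of any kind between them, were searched on both strands and found in 8 of these 33 genes, against 0.137% of 27025 genes with a window. The 8 were 7 of 12 chaperone and foldase genes and Syvn1. Only exact matches within the window were counted, here and below, so near copies of an element are left out. The matches follow 5′ to 3′ on the strand of the motif, with the fixed letters of the motif in capitals.
Hspa5: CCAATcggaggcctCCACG
Hsp90b1, match on the strand of the gene: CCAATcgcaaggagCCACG
Hsp90b1, match on the other strand: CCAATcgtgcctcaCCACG
Calr: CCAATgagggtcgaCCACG
Canx: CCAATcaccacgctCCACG
Pdia6: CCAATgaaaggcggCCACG
Dnajc3: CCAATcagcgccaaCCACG
Creld2: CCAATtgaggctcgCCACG
Syvn1: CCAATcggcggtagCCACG
The related element ERSE-II, ATTGG and CCACG with 1 base between them, was found in 2 members, Dnajb11 and Herpud1, and in 0.0444% of all genes. The letters of the XBP1 element UPRE, TGACGTGG, were in no member's window and in 0.714% of genes. The CCACG part alone was in 27 of 33 members and 35.5% of genes.

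The CARE letters TGATGNAAN were found in 6 of 33 members, against 4.50% of all genes. These were Atf3, Chac1, Trib3 and Nupr1 among the ATF4 branch, Asns among the synthesis genes, and Herpud1, which also holds an ERSE-II. The matches follow 5′ to 3′ on the strand of the motif, with its fixed letters in capitals.
Atf3: TGATGcAAg
Chac1: TGATGcAAc
Trib3: TGATGtAAa
Nupr1: TGATGcAAt
Asns: TGATGaAAc
Herpud1: TGATGcAAc
The Nupr1 match is also, on the other strand, the full amino acid response form ATTGCATCA, which 0.222% of genes hold. The Trib3 match lies after the annotated start, at bases 264 to 272 of its window, and the others lie before it.

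The 250 bases before the start are given on the strand of the gene for 3 genes that stand for the different outcomes, with the matches in capitals: Hspa5, whose signals were alike on both arrays, Chac1, higher in MS-1, and Nupr1, higher in SVEC4-10. Their positions in GRCm38.p6 are chr2:34771840-34772089 on the plus strand for Hspa5, chr2:119350992-119351241 on the plus strand for Chac1 and chr7:126625471-126625720 on the minus strand for Nupr1.
Hspa5, with 1 ERSE: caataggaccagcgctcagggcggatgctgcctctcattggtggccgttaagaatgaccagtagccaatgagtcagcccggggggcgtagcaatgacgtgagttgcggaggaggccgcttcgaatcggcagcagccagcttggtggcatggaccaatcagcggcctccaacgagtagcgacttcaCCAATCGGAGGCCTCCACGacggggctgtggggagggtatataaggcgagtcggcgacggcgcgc
Chac1, with 1 CARE: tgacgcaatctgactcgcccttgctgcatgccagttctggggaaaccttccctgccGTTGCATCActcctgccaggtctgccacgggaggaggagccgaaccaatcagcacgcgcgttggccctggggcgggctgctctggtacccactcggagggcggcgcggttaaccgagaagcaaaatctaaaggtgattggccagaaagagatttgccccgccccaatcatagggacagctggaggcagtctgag
Nupr1, with 1 CARE: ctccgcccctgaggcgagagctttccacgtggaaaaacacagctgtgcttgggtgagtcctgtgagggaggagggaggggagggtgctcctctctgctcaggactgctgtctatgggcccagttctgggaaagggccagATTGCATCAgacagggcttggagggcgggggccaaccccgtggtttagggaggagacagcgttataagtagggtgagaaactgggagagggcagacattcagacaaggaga

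The deposited values are probe set intensities, with a median over all probe sets of 18.7 in MS-1 and 18.4 in SVEC4-10. Background, the 95th percentile of 129 probe sets of odorant, pheromone, taste receptor and keratin-associated genes, was a signal of 16.3 in MS-1 and 17.6 in SVEC4-10, and 12583 genes were above it on at least 1 array. SVEC4-10 lacked most of the defining endothelial markers: 6 of 20 were above background there against 19 of 20 in MS-1, with summed signals of 370 and 41787, and Pecam1, Cdh5 and Nos3 were below background in SVEC4-10. Mesenchymal and smooth muscle markers (15 of 19 above background in SVEC4-10, 6 of 19 in MS-1, summed signals 60106 and 9092) and mesothelial markers (7 of 8 and 3 of 8, summed signals 17359 and 181) moved the other way. A single gene carried some of these sums: Sparc, with signals of 8301 and 11969, made up 91.3% of the mesenchymal sum in MS-1. Leukocyte markers summed to 4051 in MS-1 and 119 in SVEC4-10, but Cd68 alone (3645 and 45.9) made up 90.0% of the sum in MS-1 and Ptprc was not above background on either. Epithelial and pancreas markers summed to 461 in MS-1 and 502 in SVEC4-10, but single genes differed both ways. Of 8 measured, 3 were at least 2-fold higher in SVEC4-10 and 2 in MS-1 (37.5% and 25.0%, against 15.3% and 12.1% of all measured genes). The part of these cell identity differences in the results was not tested. The 21 probe sets of the added poly-A transcripts were, at the median, 1.43 times as bright in SVEC4-10 as in MS-1. Scaling to this median lowers every log2 ratio by 0.51. Single poly-A probe sets had log2 ratios from 0.28 to 0.89, so the size of this shift is uncertain.

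All 36 genes were above background on both arrays, and 80 of their 83 probe sets were above it on at least 1. Every log2 ratio has SVEC4-10 in the numerator, so a negative value is a higher signal in MS-1. The error of such a ratio was estimated from pairs of probe sets that share a gene, as the standard deviation of the pair's difference over the square root of 2, and was 0.48 (4813 genes) and 0.49 for the 23 members that allowed it. It holds no variation between cultures. Ratios were within 1 error for 13 of the 36 members and for 45.8% of all measured genes, so a ratio beyond 1 error was common. Of the 36 genes, 3 were at least 2-fold higher in SVEC4-10, where 15.3% of all measured genes were, and 5 were at least 2-fold higher in MS-1, where 12.1% of all measured genes were. These counts are 8.33% and 13.9% of the members, below and close to the shares of all measured genes. Other call rules gave a larger share towards MS-1. With the poly-A scaling the counts were 1 and 15 (2.78% and 41.7%), against 8.63% and 25.4% of all measured genes. The median log2 ratio of the members was -0.30, beside 0.018 for all measured genes, and 28 of the 36 genes were under 2-fold. At 1.5-fold the counts were 6 higher in SVEC4-10 and 14 higher in MS-1 (16.7% and 38.9%), where 25.0% and 21.8% of all measured genes were. Ratios were below 0 for 21 members (58.3%) and above 0 for 15 (41.7%), against 49.1% and 50.9% of all measured genes. With 1 array per line none of these shares was tested.

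By role, the 9 genes of the ATF4 branch held 5 of the 8 genes at least 2-fold apart, 3 higher in MS-1 and 2 in SVEC4-10 (33.3% and 22.2%, against 12.1% and 15.3% of all measured genes). The 6 genes of serine, one-carbon and asparagine synthesis had ratios from -1.46 to -0.26, with 2 within the error. Among them 1 was past 2-fold, higher in MS-1 (16.7%, against 12.1% of all measured genes). The 14 chaperones and foldases centred near equal signal, with 1 gene at least 2-fold higher in SVEC4-10 and 0 in MS-1. These are 7.14% and 0%, against 15.3% and 12.1% of all measured genes. Differences between roles were not tested.

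**Figure D1:**
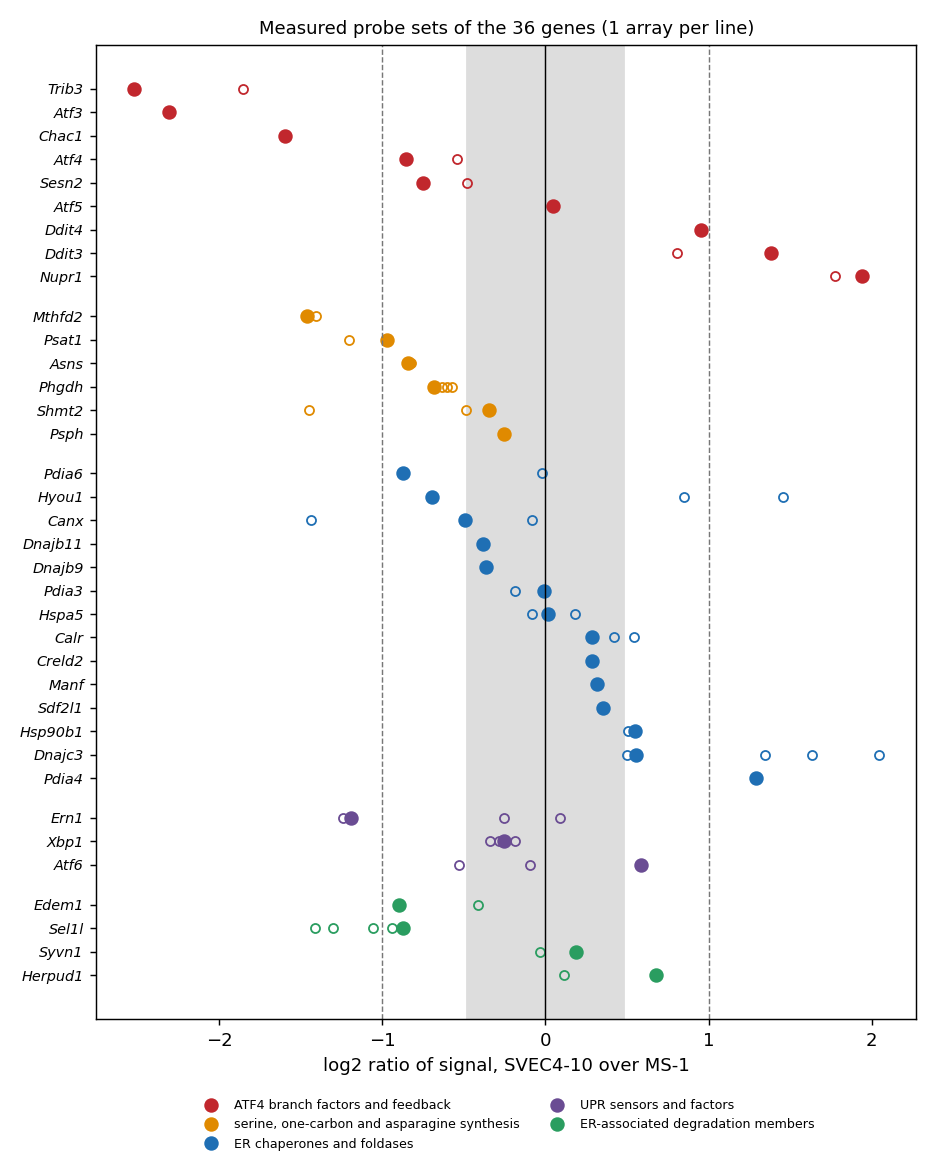
Log2 ratio of signal (SVEC4-10 over MS-1, horizontal axis) of every measured probe set of the 36 genes (vertical axis), coloured by role, with the probe set used for each gene filled and its other probe sets open. The grey band is 1 error (0.48) either side of 0 and the dashed lines mark 2-fold; Trib3 at -2.52 and Nupr1 at 1.94 are the extremes, and the synthesis genes all lie below 0.

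Atf4 itself, the transcription factor at the centre of the branch, had a signal of 3541 in MS-1 and 1956 in SVEC4-10. The ratio was -0.86 by this probe set and -0.54 by the second, so both placed it lower in SVEC4-10 by more than 1 error but under 2-fold. Atf4 is controlled mainly at translation, which these arrays do not measure. Atf5, a related factor that is also controlled at translation, had signals of 550.0 and 568, a log2 ratio of 0.048 that becomes -0.47 by the poly-A scaling. Of the pair, Atf4 thus differed by more than the error and Atf5 did not.

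The genes with the largest differences towards MS-1 encode stress-induced repressors and feedback factors. Trib3, a pseudokinase that binds ATF4 and CHOP and restrains them, had signals of 1297 and 226. It was 5.74-fold higher in MS-1 (log2 ratio -2.52, second probe set -1.85). Atf3, a transcription factor that ATF4 induces, had signals of 505 and 102, a 4.95-fold difference (-2.31) measured by 1 probe set. By the probe set used, these were the only members at least 4-fold apart, 2 higher in MS-1 and 0 in SVEC4-10. Of all measured genes 4.30% and 5.78% were, and 3.07% and 3.51% had a lower ratio than Trib3 and Atf3. Another probe set of Dnajc3 was 4.13-fold higher in SVEC4-10, and the second of Trib3 was 3.61-fold higher in MS-1.

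Chac1, an enzyme that breaks down glutathione and is induced by ATF4, had a signal of 1369.6 in MS-1 and 454 in SVEC4-10, a 3.02-fold difference (-1.59). Sesn2, a leucine sensor that restrains mTORC1, had signals of 171 and 102 and a ratio of -0.75, with its second probe set at -0.48. Both were lower in SVEC4-10, Chac1 by more than 3 errors and Sesn2 by less than 2.

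In contrast, 3 other genes of the branch had higher signal in SVEC4-10. Nupr1, a small nuclear stress protein, had signals of 478 and 1837, 3.84-fold higher in SVEC4-10 (1.94, second probe set 1.78). Ddit3, which encodes the pro-apoptotic factor CHOP, was at 298 in MS-1 and 778 in SVEC4-10, 2.61-fold apart (1.38). Its second, dim probe set was below background in MS-1 and at least 1.75-fold higher in SVEC4-10. Ddit4, an mTORC1 inhibitor also known as REDD1 that responds to hypoxia and glucocorticoids as well, had signals of 300.4 and 581, a ratio of 0.95. Nupr1 stayed at least 2-fold apart under the poly-A scaling (1.43), whereas Ddit3 (0.87) and Ddit4 (0.44) were then under 2-fold. Ddit3 therefore lay on the opposite side from Trib3, Chac1 and Atf3, although all are described as induced downstream of ATF4. The median of the 9 genes, -0.75, is the value of Sesn2, and with 5 ratios below 0 and 4 above it says little of the branch as a whole.

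Of the biosynthetic genes, Mthfd2 passed 2-fold, Asns, Phgdh and Psat1 had higher signal in MS-1 by more than 1 error but under 2-fold, and Psph and Shmt2 were within the error. Asns, which makes asparagine from aspartate and glutamine, had signals of 2190.1 and 1219.8 (-0.84, second probe set -0.82). In the serine pathway, Phgdh, the first enzyme, had signals of 3452 and 2148 (-0.68) and its 4 probe sets ranged from -0.68 to -0.57. Psat1, the second enzyme, had signals of 2975 and 1519.5 (-0.97, second probe set -1.21). Psph, which releases free serine, had signals of 959 and 803, and its ratio of -0.26 was within the error. Phgdh and Psat1 thus lay beyond 1 error, as many of all measured genes did, and Psph within it. The difference between these steps was not tested.

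The mitochondrial folate enzymes Shmt2 and Mthfd2 are members. Shmt2, which passes the serine carbon to folate, had signals of 902 and 711 (-0.34) by the probe set used, with a range from -1.45 to -0.34 among its 4 probe sets. Mthfd2, the next enzyme of the mitochondrial pathway, had signals of 955 and 347. It was 2.75-fold higher in MS-1 (-1.46, second probe set -1.41), the only gene of the 6 past 2-fold. All 6 genes and every one of their measured probe sets had a ratio below 0, where 49.1% of all measured genes did, and the median was -0.76, but the ratios of Psph and Shmt2 were within the error. The 4 Phgdh probe sets and 3 of the 4 of Shmt2 belong to the class that can cross-hybridise, so related sequences can contribute to their signal.

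**Figure D2:**
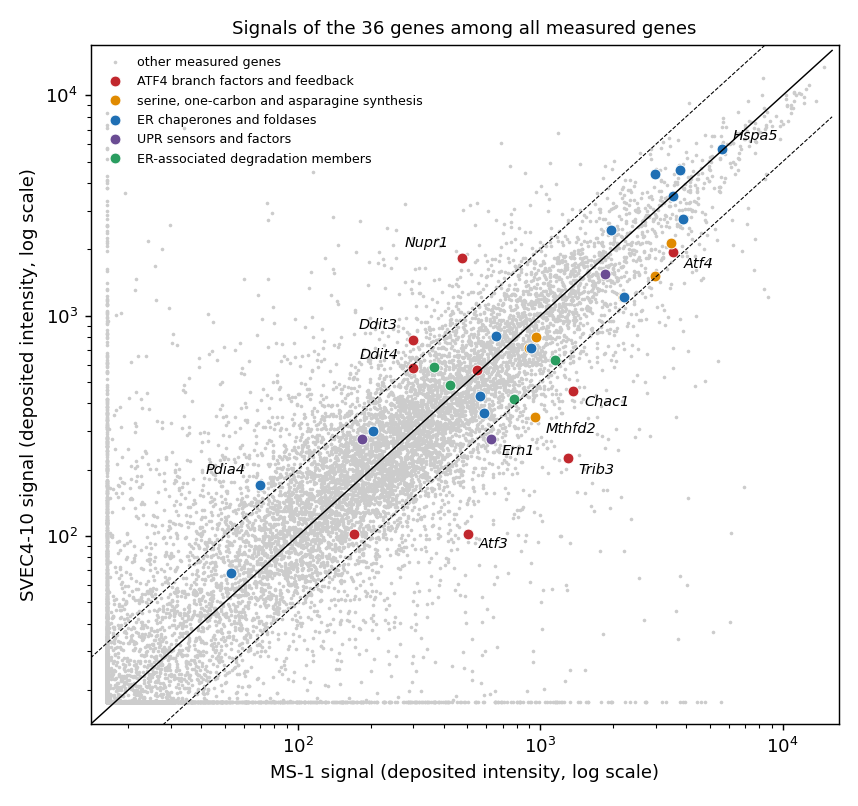
Signal in MS-1 (horizontal) against the SVEC4-10 array (vertical), both as deposited intensities on log scales, for the 36 genes by role and for all other measured genes in grey, with values below background drawn at background. The solid line is equal signal and the dashed lines are 2-fold; Trib3, Atf3, Chac1, Mthfd2 and Ern1 lie below the lower line and Nupr1, Ddit3 and Pdia4 above the upper one.

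Of the 4 major ER chaperones, Hspa5 and Calr had ratios within the error, and Hsp90b1 and Canx lay just beyond it in opposite directions, all under 2-fold by the probe set used. Hspa5, the Hsp70 of the ER lumen and the usual readout of the unfolded protein response, had a signal of 5629 in MS-1 and 5687 in SVEC4-10. The ratio was 0.015, or -0.50 by the poly-A scaling, and its 3 probe sets ranged from -0.080 to 0.18. Hsp90b1, the ER Hsp90 known as GRP94, had signals of 2989 and 4379 (0.55, second probe set 0.50, and 0.038 by the poly-A scaling). Calr, a lectin chaperone, had signals of 3762 and 4589 (0.29, 3 probe sets up to 0.54, and -0.23 by the poly-A scaling). Canx, its membrane-bound relative, had signals of 3889 and 2761 (-0.49), and its 3 probe sets were spread from -1.44 to -0.082, with -1.01 for the probe set used by the poly-A scaling. The only one of these 4 beyond 1 error by every measured probe set was Hsp90b1, and the poly-A scaling brought it within the error.

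The disulfide isomerases did not share a direction. Pdia3, which works with the lectin chaperones, had signals of 3533 and 3514 (-0.0078, second probe set -0.19). Its ratio becomes 0.067 by quantile normalization, 0.0034 by median centring and -0.52 by the poly-A scaling. Pdia6 had signals of 2222 and 1212 (-0.87), and its second probe set was near background, at 17.9 in MS-1 and below background in SVEC4-10, which leaves only a bound. Pdia4, also known as ERp72, had signals of 69.7 and 170.2, a 2.44-fold difference (1.29) from 1 measured probe set, and was under 2-fold (0.78) by the poly-A scaling. By the probe set used, Pdia4 was the only chaperone or foldase past 2-fold. With the poly-A scaling Pdia6 (-1.39), Hyou1 (-1.21) and Canx (-1.01) were past it instead.

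By the probe set used, the partners of BiP were all under 2-fold, but the probe sets of Dnajc3 and Hyou1 were widely spread. Dnajb9 (917 and 712, ratio -0.37) and Dnajb11 (565 and 433, -0.38), both J-domain co-chaperones, were within the error. Dnajc3, the J-domain protein P58IPK that inhibits PERK, had signals of 205 and 300.5 (0.55), and its 5 probe sets ranged from 0.50 to 2.05. All 5 had higher signal in SVEC4-10, and 3 of them were past 2-fold, of which 1 is a lower bound because the probe set was below background in MS-1. Hyou1, a large Hsp70-like exchange factor for BiP, had signals of 585 and 361 (-0.70), while its 2 dimmer probe sets gave 0.85 and 1.45, so its direction was not determined.

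The remaining small secreted or luminal members were within 1 error of 0. Sdf2l1, a BiP cofactor, had signals of 53.1 and 68.0 (0.36). Creld2, an isomerase-like protein, had signals of 659 and 805 (0.29). Manf, a secreted factor released on ER stress, had signals of 1962 and 2440.4 (0.31). All 3 turned negative, to between -0.22 and -0.16, by the poly-A scaling. Over the 14 chaperones and foldases the median was 0.15, with 8 above 0 and 6 below, and it was -0.36 by the poly-A scaling against -0.49 for all measured genes.

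Among the sensors, only Ern1 passed 2-fold. Ern1, the kinase and RNase IRE1alpha that splices Xbp1 mRNA, had signals of 629 and 276, 2.28-fold higher in MS-1 (-1.19), and a second probe set gave -1.24. Its other 2 measured probe sets were at signals of 21.0 and 16.6 in MS-1 and below background in SVEC4-10, with ratios of -0.25 and 0.088 after raising to background. Xbp1 had signals of 1850.2 and 1549.7 (-0.26), and its 4 probe sets ranged from -0.34 to -0.19. These probe sets were not used to tell spliced from unspliced Xbp1. Atf6 had signals of 184 and 276 (0.59), but its other 2 probe sets gave -0.10 and -0.53, so its direction was not determined.

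The degradation members export misfolded proteins from the ER and mark them with ubiquitin. Sel1l, the scaffold of the HRD1 complex, had signals of 1152 and 630.1 (-0.87), and its 5 probe sets ranged from -1.41 to -0.87. Edem1, which trims mannose from misfolded glycoproteins, had signals of 781 and 419 (-0.90, second probe set -0.41). Syvn1, the HRD1 ubiquitin ligase itself, had signals of 425 and 483 (0.19, second probe set -0.031, and -0.33 by the poly-A scaling). Herpud1, an ER membrane protein that recruits the complex, had signals of 365 and 584 (0.68, second probe set 0.11). Sel1l was lower in SVEC4-10 by every probe set, while its partner Syvn1 was within the error, and none of the 4 genes passed 2-fold by the probe set used.

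Members that hold the same promoter letters did not all lie on the same side. Of the 6 genes with a CARE match, Trib3, Atf3 and Chac1 were at least 2-fold higher in MS-1, Asns had a ratio of -0.84, Herpud1 was at 0.68 and Nupr1 was at least 2-fold higher in SVEC4-10 (median -1.22). Over all 280 measured genes with a CARE match the median was 0.074, with 17.1% at least 2-fold higher in SVEC4-10 and 15.0% in MS-1. By the probe set used, the 8 members with an ERSE match ranged from -0.87 (Pdia6) to 0.55 (Dnajc3 and Hsp90b1), with a median of 0.24 and none past 2-fold. Other probe sets of Dnajc3 (up to 2.05) and Canx (down to -1.44) were past 2-fold in opposite directions. By the poly-A scaling Pdia6 (-1.39) and Canx (-1.01) were past 2-fold.

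The rest of the pathway was read from further lists of genes that are not members. Of 17 measured sensors and regulators of eIF2alpha, 5 were at least 2-fold higher in SVEC4-10 and 1 in MS-1 (29.4% and 5.88%, against 15.3% and 12.1% of all measured genes, median 0.27). Creb3l1, an ER-anchored factor related to ATF6 that is known for its role in collagen secretion, had a signal of 270.4 in SVEC4-10 and was below background in MS-1, a difference of at least 16.6-fold. Eif2ak2, the interferon-induced kinase PKR, had signals of 308 and 976 (1.66), Traf2, an adaptor that binds IRE1, had 102 and 273 (1.42), and Wfs1, an ER calcium regulator, had 362 and 142 (-1.35). The kinase Eif2ak3, which is PERK, and the eIF2alpha phosphatase subunit Ppp1r15a, an ATF4 target, were chosen for mention after their values were seen. Eif2ak3 had signals of 249 and 191 (-0.39) and Ppp1r15a 564 and 285 (-0.99).

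Of the other ER folding genes, 8 of 40 measured were at least 2-fold higher in SVEC4-10 and 1 in MS-1 (median 0.36, or 20.0% and 2.50% against 15.3% and 12.1% of all measured genes). Rcn3, a luminal calcium-binding protein, had signals of 29.5 and 1084, a 36.7-fold difference. Fkbp7 (295 and 1264) and Fkbp14 (166 and 444), both prolyl isomerases, and Txndc5 (471 and 1616), a disulfide isomerase, were 4.28-, 2.67- and 3.43-fold higher in SVEC4-10. In the translocation, glycosylation and export list 4 of 44 were at least 2-fold higher in SVEC4-10 and 0 in MS-1 (median 0.10). These shares, 9.09% and 0%, were both below the 15.3% and 12.1% of all measured genes. The largest difference was that of Kdelr3, a receptor that returns luminal proteins to the ER (147 and 1136, 7.73-fold). Mesenchymal markers, whose summed signal was 60106 in SVEC4-10 and 9092 in MS-1, were higher in SVEC4-10 as the genes named here were. Their part was not tested.

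Other degradation genes gave a median of 0.29, with 3 of 26 at least 2-fold higher in SVEC4-10 and 1 in MS-1. These shares, 11.5% and 3.85%, were both below the 15.3% and 12.1% of all measured genes. The genes were Fam8a1, Ubqln1 and Faf2 (ratios 1.43, 1.33 and 1.23) and, towards MS-1, Edem2 (-1.06). Another probe set of Ubqln1 gave 0.37. Of 35 other ATF4 and CHOP targets, 9 were at least 2-fold higher in SVEC4-10 and 7 in MS-1 (25.7% and 20.0%, against 15.3% and 12.1% of all measured genes, median -0.093). Aldh1l2, a mitochondrial folate enzyme, had signals of 120.3 and 633, 5.26-fold higher in SVEC4-10, opposite to Mthfd2 of the same pathway. Stbd1 and Vldlr were at least 25.0-fold and at least 10.7-fold higher there. Cdkn1a, the cell cycle inhibitor p21, had signals of 2507 and 538 (-2.22).

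Among parallel pathways, 0 of 19 measured cytosolic aminoacyl-tRNA synthetases, several of which ATF4 induces, were at least 2-fold higher in SVEC4-10 and 4 in MS-1 (21.1%, where 12.1% of all measured genes were, median -0.24). Cars (926 and 277), Rars (4599 and 1449) and Vars (812 and 382) were 3.34-, 3.17- and 2.12-fold higher in MS-1. Of 25 measured cytosolic heat shock genes, 4 were at least 2-fold higher in SVEC4-10 and 1 in MS-1 (16% and 4%, against 15.3% and 12.1% of all measured genes, median -0.0049), so the share towards SVEC4-10 was that of all genes. Hspb8, a small heat shock protein, was at least 25.6-fold and Bag2, an Hsp70 cofactor, 7.64-fold higher in SVEC4-10, Hspb6 was 2.00-fold higher there, and Hsph1 was 2.11-fold higher in MS-1.

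**Figure D3:**
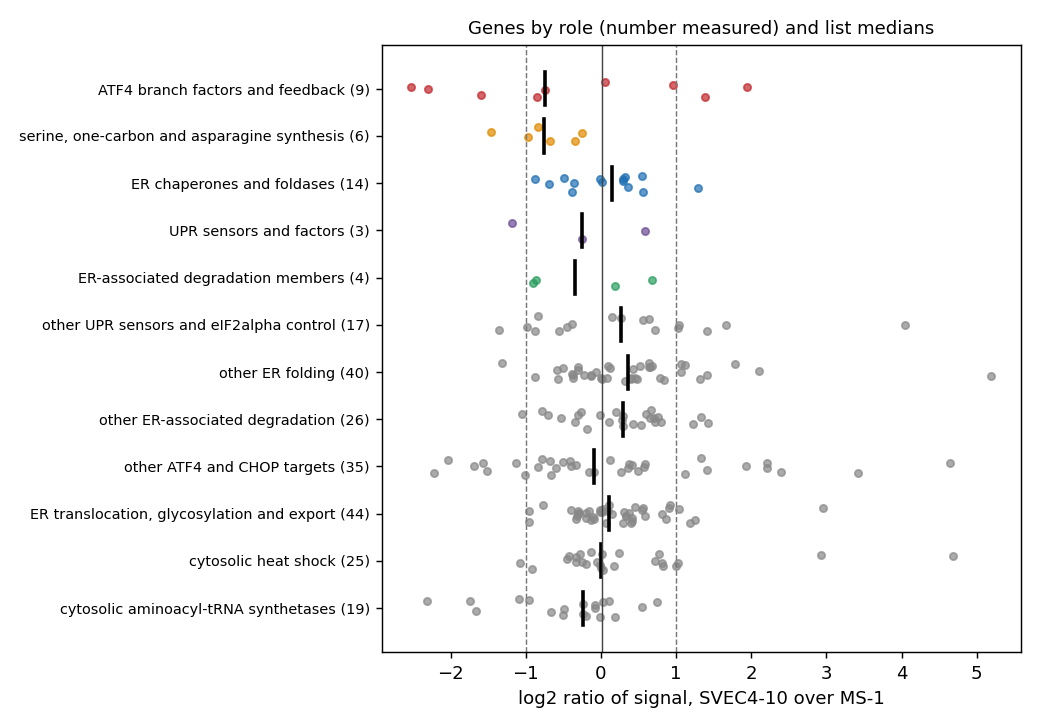
Log2 ratio of signal (SVEC4-10 over MS-1, horizontal axis) of each measured gene in the 5 roles of the members (coloured) and in 7 further lists (grey), with the number measured in brackets; the thick bars are medians, the thin line is the median of all measured genes (0.018) and the dashed lines mark 2-fold. The ATF4 branch is spread on both sides with few values near 0, whereas the synthesis genes lie between -1.46 and -0.26 and 13 of the 14 chaperones lie within 2-fold.

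The other backgrounds leave the members' medians as they are, since all members are above background, and the poly-A scaling and median centring move members and all genes alike. Of the settings that could change their relation, the probe set with the smallest ratio moved the median of the ATF4 branch most, to -0.48, and the mean over probe sets that of the chaperones, to 0.30.

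**Figure D4:**
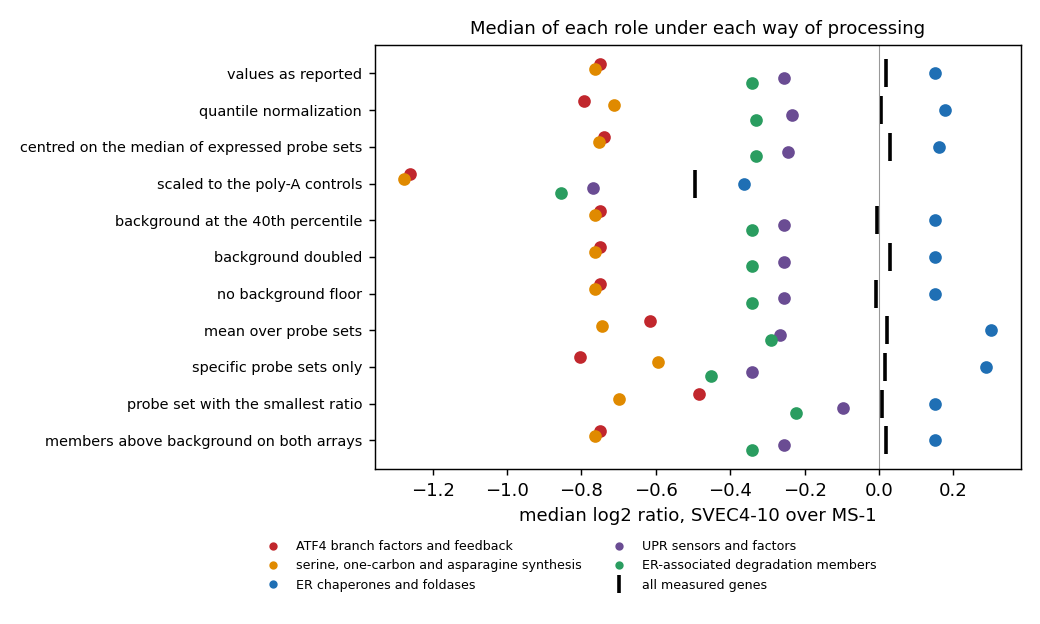
Median log2 ratio (SVEC4-10 over MS-1, horizontal axis) of the members of each role (points) and of all measured genes (black bars) under each way of processing (vertical axis). Scaling to the poly-A controls moves every median down, that of all genes to -0.49 and that of the chaperones to -0.36. The medians under the other backgrounds cannot differ from the main ones, because all members are above background.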

How the data were processed

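Total RNA from 1 culture of each line was isolated with Trizol reagent, and 6 µg of it was made into biotinylated cRNA and hybridised to an Affymetrix array, per the labels' protocols. Intensities on a linear scale were deposited, 1 per probe set and array. Both arrays have a 2%-trimmed mean of 150.001, so each was scaled by 1 factor, and the summary method is not given in the sources used here. Gene names came from the platform annotation, with symbols brought up to date through RefSeq gene identifiers (GRCm38.p6): of 45101, 34945 had 1 gene (34741 matched), 932 several, 9160 were unnamed here and 64 were controls.

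Values below background were raised to it before the log2 ratio was taken. Genes with a probe set above background in either line counted as measured. The brightest such probe set by mean log2 signal stood for the gene, and one of the cross-hybridising class was taken only where no other was measured. A ratio against background is written as "at least". With 1 array per line there was no test, and genes were counted past 2-fold; the number of arrays limits the precision. All members were named, with up to 4 genes of each further list that had the largest ratio past 2-fold and probe sets of 1 sign. The members, lists and alternatives were chosen with earlier results of these data known. The steps (Python 3.11.15, pandas 2.3.3, numpy 2.4.6) were tested on simulated data. Listed genes without a probe set of their own were not analysed here.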

Additional observations from a re-analysis of the deposited data

How the results depend on the processing

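Every log2 ratio, of members and of all genes alike, is 0.51 lower when the arrays are scaled to the poly-A controls. The medians were then -0.81 for all members, -1.26 for the ATF4 branch, -1.28 for the synthesis genes, -0.36 for the chaperones, -0.77 for the sensors and -0.85 for the degradation members, with 1 member at least 2-fold higher in SVEC4-10 and 15 in MS-1. At most 7 members changed the sign of their ratio in any setting (7 by the poly-A scaling, 3 by the probe set with the smallest ratio). With that probe set the median was -0.089 over the members and -0.48 over the ATF4 branch, and Ern1 turned from -1.19 to 0.088, the value of a probe set below background in SVEC4-10 that was raised to background. The chaperone median was 0.30 with the mean over probe sets and 0.29 with specific probe sets only (11 of 14 genes). At 1.5-fold, 6 members were higher in SVEC4-10 and 14 in MS-1 (25.0% and 21.8% of all measured genes), and at 4-fold 0 and 2 (5.78% and 4.30%). Quantile normalization, median centring, the other backgrounds and no floor left the counts of members past 2-fold within 1.5 times. All 36 members were above background on both arrays, so keeping only such members changed nothing. No paired analysis was possible because each line has 1 array.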

Other observations

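The ERSE letters were found in the windows of 37 genes, of which 15 were measured and 8 are members. Derl3, an ER degradation gene, was above background in SVEC4-10 only (signal 26.5, log2 ratio at least 0.70). Ero1b, an oxidase of disulfide bond formation, had signals of 69.0 and 107.9 (0.65). Its probe sets ranged from -0.032 to 1.43, so its direction was not determined. Alg12, a mannosyltransferase of N-glycan assembly, had signals of 52.2 and 91.4 (0.81, probe sets from 0.63 to 1.68). Spats2l had signals of 26.7 and 220.4, an 8.26-fold difference towards SVEC4-10 (probe sets from 2.06 to 3.05). Adcy3, an adenylyl cyclase, had 29.9 and 117 (1.97, probe sets from 0.36). Pan2 had signals of 67.3 and 81.3 (0.27), and Zfp57 had 70.3 and 61.0 (-0.20). These are all 7 measured genes with the letters that are not members, listed after the members' values were seen.

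A pair of probe sets that hold Phgdh together with a predicted gene were left out of the counts. Their log2 ratios of -0.72 and -0.55 were close to the -0.68 of the probe set used.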
